A study of Mus musculus with 6 samples.

Results

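Slc22a17 and 9 genes close to it on mouse chromosome 14 were described in neurospheres, in which neural stem and progenitor cells grow as free spheres. The 10 genes, Slc22a17, Efs, Pabpn1, Cmtm5, Ngdn, Bcl2l2, Homez, Ap1g2, Jph4 and Thtpa, were taken by their symbols from a table of 14327 genes, and all 10 were in it. There were 3 libraries labelled cKO, from mice with a conditional knockout of Slc22a17, and 3 libraries from wild-type (WT) mice. The cells of all 6 had been isolated from the hippocampus at postnatal day 0 and grown in DMEM-F12 with B27, N2, EGF and bFGF. The labels name neither the Cre driver nor the deleted part of the gene, nor the strain or sex of the mice. They also do not state that each library had its own mouse or culture. The p-values therefore describe the spread among these 6 libraries, part of which may be technical.

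Slc22a17 encodes a membrane protein of the SLC22 transporter family that acts as a cell surface receptor for lipocalin 2, a secreted protein that carries iron bound to siderophores. The receptor takes the complex up by endocytosis and so offers cells a route for iron that does not use transferrin. The study asked about this gene in the formation of neurons after birth and in the iron balance of the hippocampus. Its neighbours on the chromosome have unrelated functions, from RNA polyadenylation to vesicle transport and cell survival. They are described here because they lie near the gene that the label names. The list does not hold every gene of the region. Ppp1r3e and Myh6, which lie nearer than some of its members, are not in it, and it was chosen with earlier results of these data known.

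Values are FPKM, fragment numbers divided by transcript length and by the mapped total of the library, so levels can be compared between genes per length. Differences were tested with limma on log2(FPKM + 1) over 11596 genes, those averaging 1 FPKM or more, with Benjamini-Hochberg adjustment over all of them. Of these genes 3 passed an adjusted p of 0.05 (0.0259%), and 1422 had an unadjusted p under 0.05 (12.3%), 515 higher and 907 lower in the cKO-labelled libraries. With each library scaled to the same median the split was 727 higher and 689 lower, and with quantile normalization 736 higher and 737 lower. Y-linked transcripts set the WT libraries apart. Ddx3y and Eif2s3y together stood at 50.5, 43.8 and 51.2 FPKM in the cKO-labelled libraries, and at 0.10, 0.07 and 25.9 FPKM in WT replicates 1 to 3. This level nearly followed the label, so in every comparison below the label and the sex of the cells cannot be fully told apart. All 10 listed markers of neural stem cells were tested. Their summed level, most of it Fabp7 and Vim, was 3155 to 3430 FPKM in the cKO-labelled libraries and 3435 to 3628 FPKM in WT. None of the 10 had an unadjusted p under 0.05 in limma, and for each of them the groups overlapped. Of the 10 neuronal markers 3 passed the filter (Tubb3, Map2 and Prox1), and Neurod1 was not among the genes analysed. Tubb3 averaged 5.15 FPKM in the cKO-labelled libraries and 4.02 FPKM in WT, without overlap (log2 difference 0.30, unadjusted p = 0.0135, adjusted p = 0.279 in limma). Map2 and Prox1 had log2 differences of -0.019 and 0.067, with unadjusted limma p-values of 0.817 and 0.653. Listed markers of microglia, endothelium and fibroblasts each summed to at most 5.45 FPKM in any library.

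Slc22a17 (gene identifier 59049, minus strand, chromosome 14, 54906727 to 54913132 in GRCm38) was the most abundant of the 10 genes and ranked 361 of 14327 in the whole table, in its top 2.52%. It stood at 164, 166 and 187 FPKM in cKO replicates 1 to 3 and at 181, 169 and 204 FPKM in WT replicates 1 to 3. The groups overlapped, with WT replicate 2 below cKO replicate 3. The means were 172 ± 12.7 FPKM in the cKO-labelled libraries and 184 ± 17.8 FPKM in WT (SD, n = 3 each). The log2 difference was -0.10 (SE 0.0860, limma adjusted p = 0.707), and an exact two-sided permutation test gave p = 0.500, where 0.1 is the smallest that 3 against 3 libraries allow. The 95% interval of the fitted level ran from 81.6% to 107% of WT, which leaves out a complete loss of the counted transcript and includes a modest decrease. Against WT replicate 3 alone, the WT library with Y-linked transcripts, the estimate was 84.4% (interval 70.1% to 102%). That fit takes the lone library to vary as the cKO-labelled ones do. When the summed Y-linked level entered the model as a covariate, the estimate was 73.2% (interval 55.7% to 96.1%, unadjusted p = 0.0299 and adjusted p = 0.921 in limma, where the adjusted p over its 18 alternatives ran from 0.487 to 0.999). Relative to its cKO mean, the Y-linked level was 90.3% to 106% in the cKO-labelled libraries and 0.206%, 0.144% and 53.4% in WT replicates 1 to 3. The covariate thus nearly follows the group, and its slope rests mostly on WT replicate 3. Estimates with it, here and below, therefore hang on that library and are not estimates freed of sex. The table holds 1 value per gene and no values per exon. The directions below are therefore those between cKO-labelled and WT libraries, not between cells without and with the receptor.

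**Figure D1:**
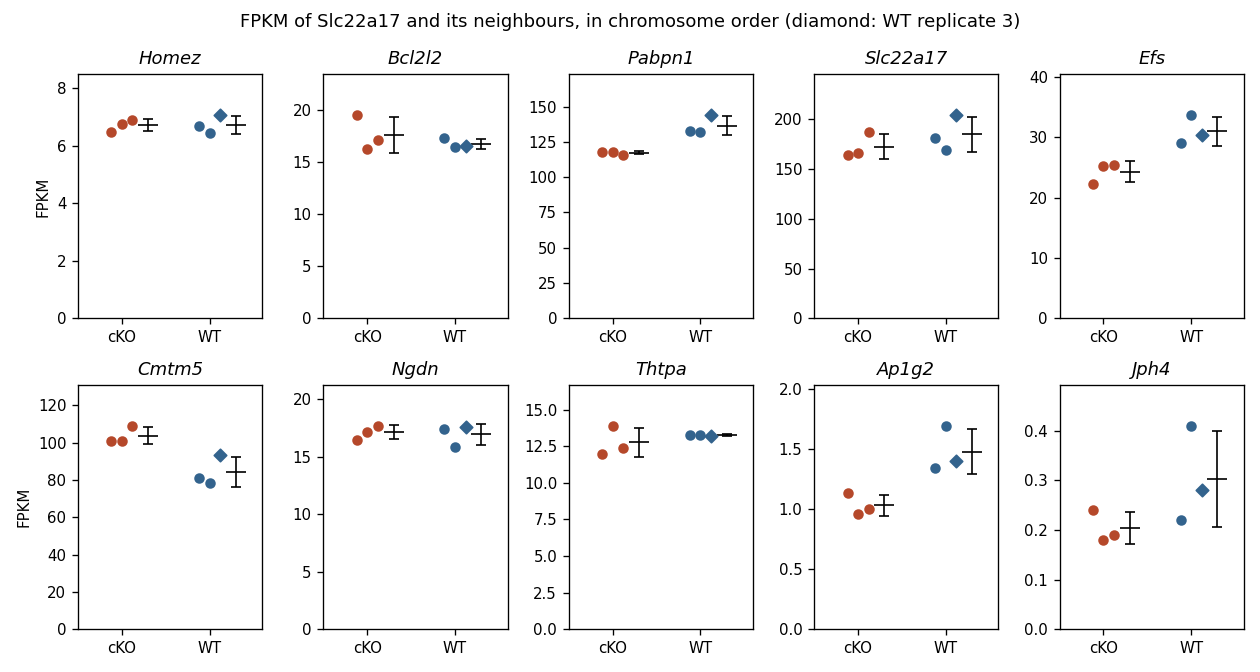
FPKM of the 10 genes in each library, in chromosome order, with the cKO-labelled libraries on the left and WT on the right of each panel. Points are libraries, the diamond is WT replicate 3, and the bars give the mean and SD of 3 libraries. Slc22a17 overlaps between the groups, while Pabpn1, Efs, Cmtm5 and Ap1g2 do not.

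The order of the 10 genes by level was the same in every library apart from Bcl2l2 and Ngdn, whose ranges overlapped. Below Slc22a17 stood Pabpn1 with means of 117 FPKM in the cKO-labelled libraries and 136 FPKM in WT, and then Cmtm5 with 104 FPKM in cKO and 84.1 FPKM in WT. Efs followed at 24.3 FPKM in the cKO-labelled libraries and 31.1 FPKM in WT. Bcl2l2 and Ngdn had means of 17.6 and 17.1 FPKM in the cKO-labelled libraries and 16.7 and 17.0 FPKM in WT, and did not differ from each other beyond their spread in either group. Thtpa, Homez, Ap1g2 and Jph4 were lower, in this order, with libraries that did not overlap between one gene and the next.

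Among the 9 neighbours, 4 differed between the groups by more than the spread within them at an unadjusted p under 0.05, and none passed over all genes in limma. Efs, Pabpn1 and Ap1g2 had lower and Cmtm5 had higher values in every library labelled cKO than in any WT library. That is 4 of the 8 neighbours that passed the filter. Of all 14 tested genes within 250 kb of Slc22a17, listed or not, the same 4 (28.6%) had an unadjusted p under 0.05. Over all tested genes 12.3% had an unadjusted p under 0.05 (4.44% higher and 7.82% lower), and 17.2% had groups that did not overlap (7.07% higher and 10.2% lower). The median size of the log2 difference was 0.14 over the 8 neighbours and 0.077 over all tested genes, and the median difference itself was -0.028 over the neighbours and -0.015 over all tested genes. The 4 others lay between log2 differences of -0.055 and 0.067, with unadjusted limma p-values of 0.398 and above. With a Y-linked covariate, which nearly follows the group, only Pabpn1 of the 8 neighbours had an unadjusted p under 0.05 in limma. In that fit 549 of all tested genes (4.73%) had such a p.

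**Figure D2:**
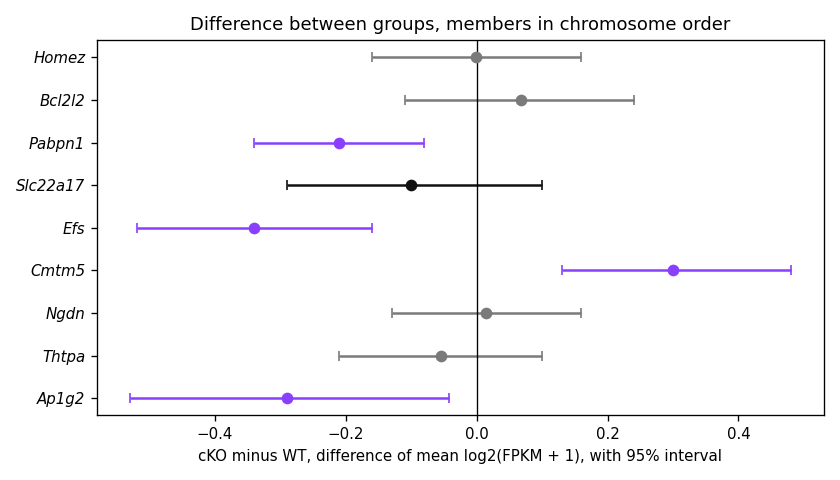
Difference between the cKO-labelled libraries and WT for the 9 tested genes, in chromosome order, as the limma log2 difference with its 95% interval. The intervals of Pabpn1, Efs, Cmtm5 and Ap1g2 (purple) leave out 0, and those of Slc22a17 (black) and of the 4 other genes (grey) include it.

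Efs (identifier 13644, minus strand, 54916543 to 54926788) is the nearest gene on the side of the Slc22a17 start, with a gap of 3.41 kb. It encodes a scaffold of the CAS family, whose members dock SRC-family kinases and their partners at sites of cell adhesion. It stood at 22.3, 25.2 and 25.5 FPKM in the cKO-labelled libraries and at 29.0, 33.7 and 30.4 FPKM in WT. No libraries overlapped, and the mean of the cKO-labelled libraries was 78.4% of the WT mean. The log2 difference was -0.34 (SE 0.0771, unadjusted p = 0.00202, adjusted p = 0.207 in limma), which ranked 113 of 11596 genes by p. Against WT replicate 3 alone it was -0.31 (unadjusted p = 0.0244), and with a Y-linked covariate it was -0.26 (unadjusted p = 0.218). Of the other CAS genes, Bcar1 stood at 25.3 FPKM in the cKO-labelled libraries and 25 FPKM in WT, and Nedd9 at 6.01 FPKM in cKO and 6.73 FPKM in WT, with log2 differences of 0.020 and -0.14. Neither had an unadjusted p under 0.05, and Cass4 was below the filter.

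Pabpn1 (identifier 54196, plus strand, 54894143 to 54898927) ends 7.80 kb from the end of Slc22a17, toward which it is transcribed. It encodes the nuclear poly(A)-binding protein, which stimulates poly(A) polymerase and sets the length of poly(A) tails. Its values were 118, 118 and 116 FPKM in the cKO-labelled libraries and 133, 132 and 144 FPKM in WT. The cKO-labelled libraries lay within an SD of 1.04 FPKM, all below the lowest WT library. The log2 difference was -0.21 (SE 0.0573, unadjusted p = 0.00556, adjusted p = 0.235 in limma). It was -0.29 against WT replicate 3 alone (unadjusted p = 0.0138) and -0.38 with a Y-linked covariate (unadjusted p = 0.0223). Pabpn1 had an unadjusted p under 0.05 in all 18 alternatives tried.

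The other 20 genes compared were cleavage and polyadenylation factors and the cytoplasmic poly(A)-binding proteins Pabpc1 and Pabpc4. Of the 20, 3 had higher and 17 lower means, where 6431 of all 11596 tested genes had lower means. Their median log2 difference was -0.063, beside -0.015 over all genes. Pabpc1, the main cytoplasmic poly(A)-binding protein, was the single one with an unadjusted p under 0.05, at 235 FPKM in the cKO-labelled libraries and 262 FPKM in WT (log2 difference -0.16, adjusted p = 0.395 in limma). Nudt21, which helps to choose the site of polyadenylation, stood at 53.7 FPKM in cKO and 57.4 FPKM in WT, and the poly(A) polymerase Papola at 37.9 FPKM in cKO and 41.5 FPKM in WT. A same-strand locus of GENCODE release M21, Gm20521, spans Bcl2l2 and Pabpn1 (54883441 to 54898137) and is not analysed here, so how reads shared with it were counted is unknown.

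Cmtm5 (identifier 67272, plus strand, 54936176 to 54943045) lies beyond Efs, 23.0 kb from Slc22a17, and was the one neighbour of these 4 with higher values in the cKO-labelled libraries. It encodes a small membrane protein with a MARVEL domain, known in brain mainly from oligodendrocytes and myelin. It stood at 101, 101 and 109 FPKM in the cKO-labelled libraries and at 80.9, 78.1 and 93.2 FPKM in WT. WT replicate 3 was the highest WT library and lay nearer to cKO replicates 1 and 2 than to WT replicate 2. The mean of the cKO-labelled libraries was 1.23 times the WT mean (log2 difference 0.30, SE 0.0767, unadjusted p = 0.00397, adjusted p = 0.235 in limma). The difference was 0.15 against WT replicate 3 alone (unadjusted p = 0.161), 0.38 without that library (unadjusted p = 6.01e-04), and -0.052, of the opposite sign, with a Y-linked covariate (unadjusted p = 0.719). With library weights Cmtm5 passed over all genes (adjusted p = 0.0438), where the adjusted p over its 18 alternatives ran from 0.0438 to 0.999.

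Markers of the oligodendrocyte lineage had lower means in the cKO-labelled libraries where they had an unadjusted p under 0.05. Of 11 such markers 2 had higher and 9 lower means, and 5 of the lower ones had an unadjusted p under 0.05, beside 7.82% of all tested genes. Mobp, a myelin protein, averaged 3.17 FPKM in the cKO-labelled libraries and 5.52 FPKM in WT, and Mag, an adhesion protein of myelin, 4.65 FPKM in cKO and 7.17 FPKM in WT. The summed level of the 11 was 1355 to 1600 FPKM in the cKO-labelled libraries and 1425 to 1874 FPKM in WT, most of it Olig1 and Olig2, and none of the 11 was at 0. Of 9 astrocyte markers 6 had higher means and 4 of these had an unadjusted p under 0.05, beside 4.44% of all tested genes. No marker of either list passed an adjusted p of 0.05 in limma. The connexin Gjb6 averaged 22.5 FPKM in the cKO-labelled libraries and 13.6 FPKM in WT, and Aldoc, an aldolase of astrocytes, 1337 FPKM in cKO and 1013 FPKM in WT. The astrocyte sum was 5268 to 5610 FPKM in the cKO-labelled libraries and 4226 to 5453 FPKM in WT, and no marker was at 0. In bulk cultures fewer cells of a type and less RNA per cell cannot be told apart, and the part of cell makeup in the Cmtm5 difference was not tested. Of the other 5 tested CMTM-type genes, Plp2, a membrane protein with a MARVEL domain, was the single one with an unadjusted p under 0.05, at 13.1 FPKM in the cKO-labelled libraries and 16.9 FPKM in WT. Cmtm6, which stabilises PD-L1 at the cell surface, averaged 29.0 FPKM in cKO and 27.7 FPKM in WT, Cmtm3 20.9 FPKM in cKO and 20.4 FPKM in WT, and Cmtm4 15.1 FPKM in cKO and 17.5 FPKM in WT.

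Ratios within a library do not depend on its depth and are given as a description. Cmtm5 over Efs was 4.53, 4.0 and 4.27 in the cKO-labelled libraries and 2.79, 2.32 and 3.06 in WT. Slc22a17 over Cmtm5 was 1.62, 1.65 and 1.71 in the cKO-labelled libraries and 2.23, 2.16 and 2.19 in WT. Neither ratio overlapped between the groups, which for Cmtm5 over Efs follows from the values of each gene given above. Slc22a17 over Cmtm5 largely restates the Cmtm5 difference, with cKO means at 1.23 times WT for Cmtm5 and 93.4% of WT for Slc22a17. Slc22a17 over Pabpn1 was 1.39, 1.41 and 1.61 in the cKO-labelled libraries and 1.36, 1.28 and 1.42 in WT, with WT replicate 3 above cKO replicates 1 and 2. Slc22a17 over Efs was 7.34, 6.59 and 7.32 in the cKO-labelled libraries and 6.22, 5.01 and 6.70 in WT, which also overlapped. With a Y-linked covariate the log2 difference of Slc22a17 (-0.45) was below those of Pabpn1 (-0.38) and Efs (-0.26), so the order of the 3 differences depends on that term.

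For Slc22a17, Pabpn1, Efs and Cmtm5 the 250 bases before 1 start are shown, so that the neighbours can be set side by side. The sequences shown differ in CpG content. They are RefSeq sequences of GRCm38.p6 on the strand of the gene, 5′ to 3′, with each CG dinucleotide in capitals.
Pabpn1 (chr14:54893893-54894142, plus strand): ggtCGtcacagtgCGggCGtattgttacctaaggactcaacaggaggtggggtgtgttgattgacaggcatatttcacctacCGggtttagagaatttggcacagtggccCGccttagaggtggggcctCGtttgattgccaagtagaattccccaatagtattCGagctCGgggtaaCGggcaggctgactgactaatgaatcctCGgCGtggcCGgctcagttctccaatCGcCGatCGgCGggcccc
Slc22a17 (chr14:54913133-54913382, minus strand): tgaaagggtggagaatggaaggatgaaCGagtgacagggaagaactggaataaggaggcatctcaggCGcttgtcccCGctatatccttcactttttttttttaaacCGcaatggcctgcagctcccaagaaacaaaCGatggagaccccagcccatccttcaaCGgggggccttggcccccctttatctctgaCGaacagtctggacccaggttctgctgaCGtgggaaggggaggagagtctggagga
Efs (chr14:54926789-54927038, minus strand): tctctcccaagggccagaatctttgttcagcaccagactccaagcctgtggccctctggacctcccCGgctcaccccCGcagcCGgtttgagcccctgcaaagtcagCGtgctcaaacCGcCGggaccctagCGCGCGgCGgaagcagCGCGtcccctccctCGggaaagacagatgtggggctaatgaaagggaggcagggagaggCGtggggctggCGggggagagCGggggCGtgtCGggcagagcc
Cmtm5 (chr14:54936220-54936469, plus strand): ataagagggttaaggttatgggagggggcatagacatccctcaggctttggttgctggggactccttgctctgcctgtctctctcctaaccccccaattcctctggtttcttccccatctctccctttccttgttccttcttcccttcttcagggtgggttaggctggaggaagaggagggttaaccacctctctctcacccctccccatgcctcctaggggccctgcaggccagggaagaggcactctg
Efs held 18 CG dinucleotides, Pabpn1 16, Slc22a17 8 and Cmtm5 0, where the median of 32851 promoters of this length was 6 and 7.87% held none. For Cmtm5 the table gives 2 starts, both inside the span listed for the gene, and the sequence is that before the one with the lower coordinate. Only 1 of these 2 starts had no CG before it, so the 0 applies to the sequence shown and not to both starts. The GC box GGGCGG, searched on both strands, was in none of the 4 and in 32.7% of all promoters. The letters CCAAT, on either strand, were found 2 times before Pabpn1, once before Cmtm5, and not before Efs or Slc22a17, and are in 33.8% of all promoters. These counts describe the sequence alone.

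Ap1g2 (identifier 11766, minus strand, 55098835 to 55106593, 186 kb from Slc22a17) encodes gamma-2 adaptin, a large subunit of clathrin adaptors that sort cargo between the trans-Golgi network and endosomes. Its level was low, at 1.13, 0.96 and 1.00 FPKM in the cKO-labelled libraries and 1.34, 1.69 and 1.40 FPKM in WT. The groups did not overlap, and the mean of the cKO-labelled libraries was 69.8% of the WT mean. On the log2(FPKM + 1) scale, which shrinks differences of low genes, the difference was -0.29 (SE 0.106, unadjusted p = 0.0267, adjusted p = 0.334 in limma), and with a pseudocount of 0.1 it was -0.48. The unadjusted p was 0.05 or more without cKO replicate 2 (0.0712), cKO replicate 3 (0.0663) or WT replicate 2 (0.0860), with the replicate block (0.0518), against WT replicate 3 alone (0.174) and with a Y-linked covariate (0.442).

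Of the other AP-1 subunits, the small subunit Ap1s1 averaged 62.4 FPKM in the cKO-labelled libraries and 68.4 FPKM in WT, and the medium subunit Ap1m1 35.7 FPKM in cKO and 39.4 FPKM in WT (log2 difference -0.14, unadjusted p = 0.0455 in limma). The large subunit Ap1b1 differed the other way, at 23.3 FPKM in cKO and 21.1 FPKM in WT (log2 difference 0.13, unadjusted p = 0.0466 in limma). Of the 6 tested AP-1 genes other than Ap1g2, 2 had higher and 4 lower means, and none passed over all genes. Ap1g2 overlaps the end of Thtpa, on the other strand, over 161 bases, and the labels do not say whether strand was used in counting.

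For the 4 neighbours with small differences the interval of the fitted level is given. Ngdn encodes neuroguidin, a partner of the cap-binding protein eIF4E and of the small subunit processome that builds the small ribosomal subunit. It stood at 16.5, 17.2 and 17.7 FPKM in the cKO-labelled libraries and at 17.4, 15.9 and 17.6 FPKM in WT, and its fitted level was 101% of WT (interval 91.3% to 112%). The groups overlapped almost fully. Of the 26 other processome genes 17 had lower means, where 6431 of all 11596 tested genes did. Lower means with an unadjusted p under 0.05 were found in 4 of the 26, beside 7.82% of all tested genes. Fbl, the rRNA methyltransferase fibrillarin, averaged 57.0 FPKM in the cKO-labelled libraries and 64.8 FPKM in WT, and Nop56 33.3 FPKM in cKO and 38.1 FPKM in WT, without passing over all genes.

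Bcl2l2 encodes BCL-W, a pro-survival member of the BCL2 family that is prominent in brain. It stood at 19.5, 16.2 and 17.1 FPKM in the cKO-labelled libraries and at 17.3, 16.4 and 16.5 FPKM in WT, and cKO replicate 1 set the higher mean. Its fitted level was 105% of WT (interval 92.9% to 118%). Among the other 12 tested BCL2 family genes 4 had higher and 8 lower means and none had an unadjusted p under 0.05 in limma. The pro-apoptotic effector Bax was the most abundant, at 144 FPKM in both groups, and the pro-survival Mcl1 stood at 39.4 FPKM in the cKO-labelled libraries and 36.5 FPKM in WT. The BH3-only genes Pmaip1 and Bcl2l11 averaged 3.45 and 3.78 FPKM in the cKO-labelled libraries and 4.12 and 4.93 FPKM in WT.

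Homez, a homeobox and leucine zipper gene, was level at 6.48, 6.75 and 6.90 FPKM in the cKO-labelled libraries and 6.67, 6.42 and 7.06 FPKM in WT, with a fitted level of 99.9% of WT (interval 89.5% to 112%). Its sign turned under scaling between libraries, so no direction is given. Of its relatives, Zhx1 averaged 27.5 FPKM in the cKO-labelled libraries and 24.6 FPKM in WT with no overlap (log2 difference 0.16, unadjusted p = 0.0203, adjusted p = 0.310 in limma), while Zhx3 averaged 56.3 FPKM in cKO and 54.8 FPKM in WT and Zhx2 17.4 FPKM in cKO and 19.3 FPKM in WT. Thtpa, which encodes the enzyme that hydrolyses thiamine triphosphate, stood at 12, 13.9 and 12.4 FPKM in the cKO-labelled libraries and at 13.3, 13.3 and 13.2 FPKM in WT. The WT libraries lay inside the range of the cKO-labelled libraries, and the fitted level was 96.3% of WT (interval 86.2% to 108%). The thiamine carrier Slc19a2 averaged 8.19 FPKM in the cKO-labelled libraries and 9.28 FPKM in WT.

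Jph4 encodes a junctophilin, a protein that ties the endoplasmic reticulum to the plasma membrane in neurons. It was near the bottom of the table, at 0.24, 0.18 and 0.19 FPKM in the cKO-labelled libraries and 0.22, 0.41 and 0.28 FPKM in WT. The groups overlapped, and the gene was left out of the main test by its low mean. In the fit without a filter its log2 difference was -0.11 (unadjusted p = 0.123, adjusted p = 0.564 in limma). The related Jph3 averaged 0.927 FPKM in the cKO-labelled libraries and 0.733 FPKM in WT, Jph1 stood below 0.10 FPKM in every library, and Jph2 was not analysed here.

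Set against the rest of the region, the differences were uneven along the chromosome. RefSeq lists 10 other protein-coding genes within 100 kb of Slc22a17, of which 7 were tested. These 7 were Homez, Bcl2l2, Pabpn1, Efs, Cmtm5 and 2 genes that are not in the list, Ppp1r3e and Myh6. Ppp1r3e, a glycogen-targeting subunit of protein phosphatase 1, averaged 3.45 FPKM in the cKO-labelled libraries and 3.79 FPKM in WT. Myh6, a cardiac myosin heavy chain whose end overlaps that of Cmtm5 over 1125 bases on the other strand, averaged 1.47 FPKM in cKO and 1.18 FPKM in WT. Neither had an unadjusted p under 0.05 (0.386 and 0.128 in limma).

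Within 1 Mb 49 other genes were tested, and 9 (18.4%) had an unadjusted p under 0.05, 4 higher and 5 lower. Without the listed neighbours it was 5 of 41 (12.2%), close to the 12.3% of all genes. These 5, named after their values were seen, were Abhd4, Dcaf11 and Dhrs1 with higher and Haus4 and Gmpr2 with lower means. The list was chosen with earlier results of these data known, so leaving it out may itself have lowered the share. The median log2 difference within 1 Mb was -0.068, and it was -0.0047 without cKO replicate 1, so it rested on that library. From 1 to 5 Mb 5 of 44 genes (11.4%) had such a p, and farther along chromosome 14 it was 29 of 300 (9.67%). No gene of chromosome 14 passed an adjusted p of 0.05 in limma, where 43 of 393 (10.9%) had an unadjusted p under 0.05.

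**Figure D3:**
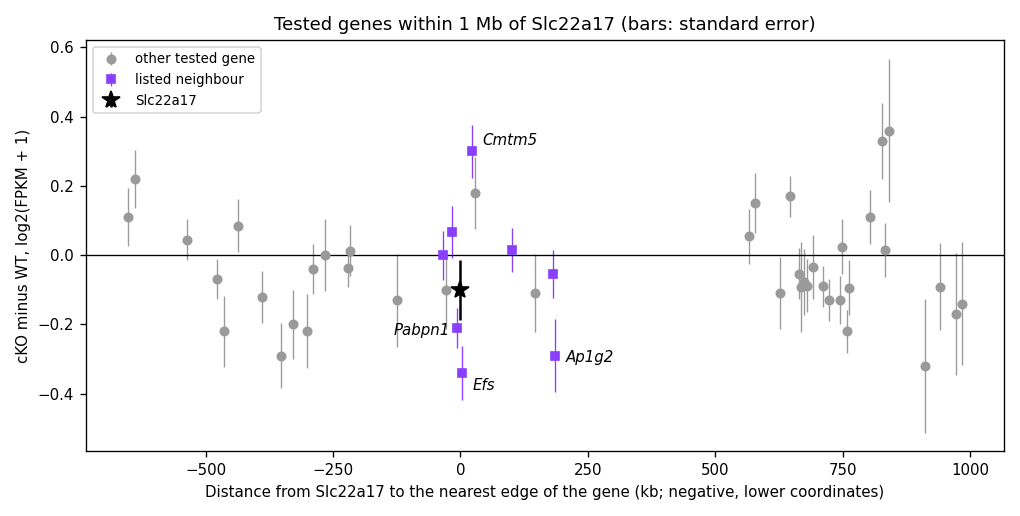
Log2 difference between the cKO-labelled libraries and WT for Slc22a17 (star), the listed neighbours (squares) and the other tested genes within 1 Mb (dots), against the distance of each gene from Slc22a17 in kb. Bars are standard errors. Efs and Cmtm5, on the same side of Slc22a17, lie at -0.34 and 0.30.

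Other genes of the lipocalin 2 and iron pathway were compared with the same test. The ligand Lcn2 was low and variable, at 1.34, 2.98 and 4.88 FPKM in the cKO-labelled libraries and 3.28, 3.65 and 1.31 FPKM in WT, and the groups overlapped. Lrp2, the endocytic receptor megalin that also binds lipocalin 2 and is named for that outside the rule for naming genes, averaged 1.54 FPKM in the cKO-labelled libraries and 1.94 FPKM in WT, without overlap (unadjusted p = 0.0515, adjusted p = 0.408 in limma). Of the 14 tested genes of this list 8 had higher and 6 lower means, with a median log2 difference of 0.026. Hmox1, the heme oxygenase that frees iron from heme, was the single one that passed. It stood at 118, 117 and 93.2 FPKM in the cKO-labelled libraries and at 56.1, 58.0 and 57.1 FPKM in WT, and rose by a log2 difference of 0.92 (SE 0.0914, adjusted p = 0.0253 in limma). Under several alternatives no gene passed, Hmox1 included, among them the comparison with WT replicate 3 alone and the Y-linked covariate. The ferritin chain Ftl1 averaged 965 FPKM in the cKO-labelled libraries and 758 FPKM in WT (adjusted p = 0.238 in limma), and Fth1, the other chain, 2534 FPKM in cKO and 2011 FPKM in WT (adjusted p = 0.483).

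Within its own family Slc22a17 was by far the most abundant transcript. Of 25 SLC22 genes looked for, 9 were found and 4 besides Slc22a17 passed the filter. Slc22a23, an orphan transporter, averaged 37.3 FPKM in the cKO-labelled libraries and 34.8 FPKM in WT, Slc22a4, a carrier of ergothioneine, 29.5 FPKM in cKO and 32.6 FPKM in WT, and the carnitine carrier Slc22a5 8.51 FPKM in cKO and 7.63 FPKM in WT. None of the 4 had an unadjusted p under 0.05 in limma, and the highest value among them in any library was 38.8 FPKM, of Slc22a23 in cKO replicate 3.

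**Figure D4:**
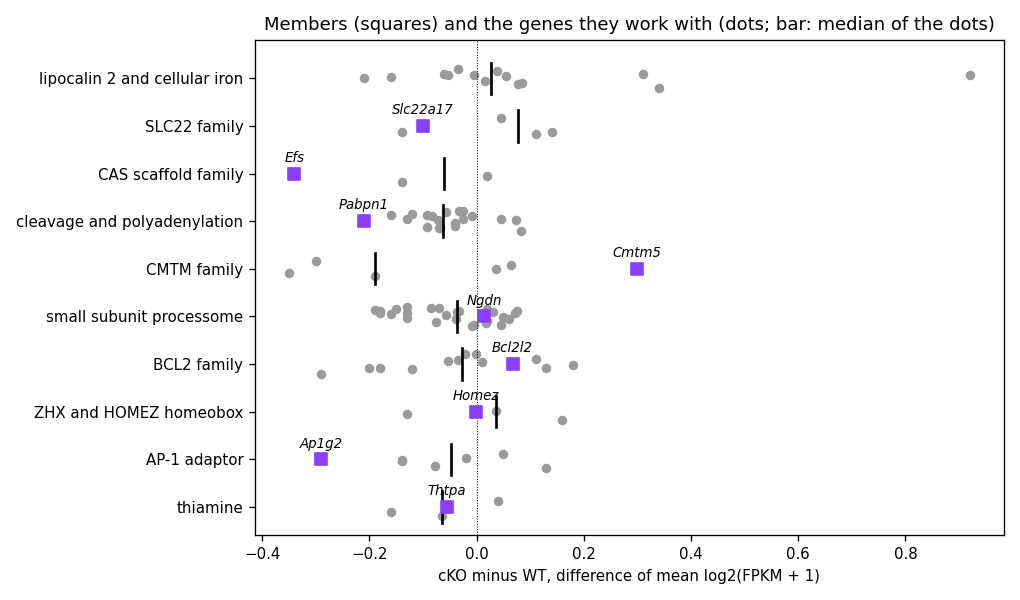
Log2 difference between the cKO-labelled libraries and WT for the members (purple squares) and for the other tested genes of their families or complexes (grey dots), with the median of the dots as a bar. Efs, Pabpn1 and Ap1g2 lie to the left and Cmtm5 to the right of the other genes of their lists, and Hmox1 is the dot at 0.92.

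The 5 genes whose pattern over the 6 libraries was most like that of Slc22a17 lay on other chromosomes. Chromosome 14 held only 393 of the 11595 other tested genes. On log2(FPKM + 1), the highest Pearson correlations were with the proteasome subunit Psma6 (0.998), the 14-3-3 protein Ywhaq (0.983), the RNA polymerase subunit Polr2e (0.983), Ncln (0.982) and the zinc finger gene Zfp771 (0.975). These are the highest of 11595 values over 6 libraries that share their scaling, and are given as a description. In each of the 5 genes WT replicate 3 was the highest library, as it was for Slc22a17. Among the neighbours, Homez had the highest correlation (0.85, ranked 286) and Bcl2l2 the lowest (-0.33), with Ngdn at 0.70, Pabpn1 at 0.62, Efs at 0.38, Ap1g2 at 0.17, Cmtm5 at 0.048 and Thtpa at 0.021. The gene nearest to Slc22a17 therefore did not follow it most closely.

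**Figure D5:**
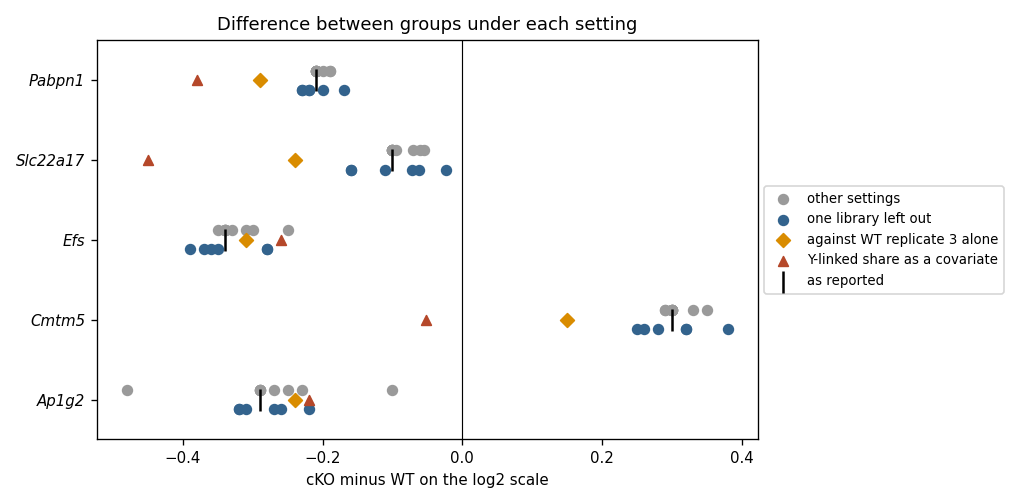
Log2 difference between the cKO-labelled libraries and WT for Slc22a17 and the 4 neighbours whose groups did not overlap, as reported (black bar), with one library left out (blue), against WT replicate 3 alone (orange), with a Y-linked covariate (red) and under the other settings (grey). Pabpn1 runs from -0.38 to -0.17 and Efs from -0.39 to -0.25, while Cmtm5 runs from -0.052 to 0.38.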

How the data were processed

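Per the labels' protocols, a lipid tissue kit gave the RNA and BGISEQ handled the library data. The authors deposited FPKM values, 1 column per library, per the file headers. The submitters' processing notes list Bowtie2, with no version, and mm10 (GRCm38); the counting tool, annotation and filters were not given in the sources used. Each column was matched to its sample by group and number, and 14317 of 14327 gene identifiers were found in RefSeq (GRCm38.p6), the source of coordinates and promoters. Strands, transcripts and overlapping loci came from GENCODE M21.

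FPKM carries no read totals. Steps of 1 fragment among low values fitted best at 16700000 to 17350000 fragments per library, with 47.7% to 57.7% of 86 to 104 values whole within 0.1 fragment. Read numbers could thus not be rebuilt, and count models were left out.

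The comparison used log2(FPKM + 1) and limma 3.58.1 (lmFit, eBayes with a trend, two-sided; R 4.3.3), leaving out 2731 genes with a mean under 1 FPKM. The fit was tested on simulated data. Named are the members, tested genes within 100 kb, the 2 most abundant genes, those of lowest p and any passing in each partner list, and the 5 genes most correlated with Slc22a17, with exceptions stated; 1 gene that the rule names is not reported here. The Y-linked covariate is the summed FPKM of Ddx3y and Eif2s3y over its average in cKO-labelled libraries. Alternatives were the pseudocount, the filter, scaling, library weights, eBayes without a trend, a replicate block, the Y-linked terms and leaving out each library. Members, lists and alternatives were chosen with earlier results of these data known. Figures were drawn with matplotlib 3.10.9.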

Additional observations from a re-analysis of the deposited data

How the results depend on the processing

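Slc22a17 kept its sign and stayed above an adjusted p of 0.05 in limma in all 18 alternatives, with log2 differences of -0.45 to -0.023 (-0.16 to -0.023 with one library left out). Efs, Pabpn1 and Ap1g2 also kept their sign in every alternative that could be fitted. Ap1g2 has no value with a filter at 5 FPKM. The number of neighbours with an unadjusted p under 0.05 was 3 to 4 with one library left out, 2 against WT replicate 3 alone and 1 with the Y-linked covariate, where over all genes 421 (3.63%) and 549 (4.73%) had such a p. These 2 fits have fewer samples or 1 more term. With library weights 1 neighbour, Cmtm5, passed over all genes, among 129 genes that passed and 2399 with an unadjusted p under 0.05. The number of genes passing was 0 without a filter, with quantile normalization, with eBayes without a trend, with the Y-linked covariate and against WT replicate 3 alone (1610, 1473, 1381, 549 and 421 at an unadjusted p under 0.05), and 0 to 10 with one library left out (968 to 1641 unadjusted). Of the genes with small differences, Homez turned to 0.022 with median scaling, 0.046 with quantile normalization and 0.013 with library weights, and ran from -0.029 to 0.031 with one library left out. Ngdn turned to -7.9e-04 with library weights, -0.10 with the covariate and -0.037 against WT replicate 3 alone, and ran from -0.029 to 0.041 with one library left out. Thtpa turned to 0.031 and Cmtm5 to -0.052 with the covariate, and Bcl2l2 ran from -0.0047 to 0.12 with one library left out. The cause was not tested. The median log2 difference near Slc22a17 was -0.068 within 1 Mb, -0.021 within 5 Mb, and for 1 Mb -0.070 to -0.0047 with one library left out, where 0 neighbours passed over all genes. The labels do not state that same-numbered libraries belong together, so the numbers were not taken as pairs. Same-numbered libraries deviated from their group means with correlations of -0.04, 0.3 and 0.26 for replicates 1 to 3. Differently numbered libraries had correlations of -0.4 to 0.17, the highest between cKO replicate 1 and WT replicate 3. These values do not decide whether the numbers are pairs. With the replicate block 22 genes passed, and Slc22a17 (-0.10, adjusted p = 0.487) and all neighbours did not. Efs and Cmtm5 came to adjusted limma p-values of 0.0812 and 0.0862 in that fit. Values below about 1 FPKM, as in Jph4, limit what can be seen.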
